A study of Microtus ochrogaster with 46 samples.

Results

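The genes described here are the 7 that encode subunits of respiratory complex I in the mitochondrial genome, measured in nucleus accumbens tissue punches of 46 prairie voles (Microtus ochrogaster), with 1 library per animal. They are 7 of the 17479 genes in the deposited table. The table gives identifiers only, and the names are inferred: the lowest vole identifiers, with endings from 6 to 35, run in the known gene order of the mammalian mitochondrial genome. On that reading ENSMOCG00000000006 is ND1, ENSMOCG00000000010 is ND2, ENSMOCG00000000025 is ND3, ENSMOCG00000000027 is ND4L, ENSMOCG00000000028 is ND4, ENSMOCG00000000032 is ND5 and ENSMOCG00000000033 is ND6. All 7 lay above 0 in all 46 libraries and passed the filter on low values, a mean normalized count of at least 10. The other 6 protein-coding genes of that genome, named in the same way, serve as the comparison: COX1, COX2 and COX3 of complex IV, ATP6 and ATP8 of complex V, and CYTB of complex III.

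Complex I, NADH:ubiquinone oxidoreductase, is the entry point of electrons from NADH into the respiratory chain and pumps protons across the inner mitochondrial membrane. Most of its subunits are encoded in the nucleus, and the ND genes encode the hydrophobic core of its membrane arm. The mitochondrial genome is transcribed into long polycistronic RNAs that are cut at the tRNAs into separate messengers, so neighbouring genes share a primary transcript but can differ in processing, polyadenylation and stability. ND4L and ND4 are an exception, since they overlap and stay together on 1 messenger. ND6 is the protein gene of the opposite, light strand, and its RNA is known to lack a regular poly(A) tail. The nucleus accumbens is a forebrain region of the reward system, studied in this species for its part in pair bonding.

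The study asks how RNA differs with the forming and keeping of a pair bond in each sex. Sexually naive animals lived with a littermate of their own sex for 3 weeks (10 females, 6 males), and the others lived with a partner of the opposite sex for 24 h (10 females, 6 males) or for 3 weeks (9 females, 5 males). The 9 females at 3 weeks are those of the sample titles, whereas the series text gives 6. No gene was deleted and no agent given in any group, as far as the labels state, and ages are not given. The series text counts 46 voles, which makes the libraries separate animals, and no label ties animals of different groups to each other.

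Levels are given as log2(normalized count + 1), as deposited. They are not divided by gene length, so they compare groups for 1 gene and not genes with each other, and the same holds for ratios. The tissue label could not be set against defining markers, since the reference gene table matched 0 of the 17478 identifiers without a symbol. Depth was estimated from the value of 1 read in each library and ran from 15.3 to 38.1 mega-reads (median 29.2). How close low values came to whole reads differed between libraries: of those worth at most 3 reads, 51.5% to 91.9% (median library 85.5%) lay within 0.1 of a whole read. The lowest shares were those of naive male replicate 1 (51.5%) and of 3-week female replicate 1 (56.9%), the latter also the library of the lowest depth.

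Libraries were also clustered into a pair of patterns, a number fixed in advance, by how 2890 low genes deviate from whole reads. Pattern A held 35 libraries, all 29 females and the 6 males paired for 24 h, and pattern B the 11 naive and 3-week males. The mean r of these deviations between libraries was 0.12 to 0.26 for groups of pattern A and 0.42 to 0.49 for groups of pattern B. Across the patterns it was -0.17 to -0.05. The patterns come from the data and not from the labels, which name no batch, and what lies behind them was not tested. Comparisons within females, between the sexes at 24 h, and between naive and 3-week males stay within 1 pattern, and the 3-week interaction sets a difference within pattern B against one within pattern A. In every other comparison, group and pattern cannot be told apart.

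Together the 7 genes took 4.96% ± 0.477 (SD, n = 46) of all normalized counts, with a range of 4.01% to 6.50% over libraries. All 13 mitochondrial protein genes took 12.8%. In the order naive, 24 h and 3 weeks, which is kept throughout, the female groups of 10, 10 and 9 animals averaged 4.73% ± 0.288, 4.91% ± 0.370 and 5.30% ± 0.586 (SD). The male groups of 6, 6 and 5 animals averaged 5.17% ± 0.701, 4.72% ± 0.385 and 4.92% ± 0.164 (SD). The group ranges overlapped. Relative to the other 6 genes, the 7 genes held 0.635 ± 0.0291 of their summed count over all libraries, and the group means ran from 0.616 (males at 24 h) to 0.649 (females at 3 weeks). This is bulk tissue, in which fewer cells or mitochondria of a kind and less RNA in each cannot be told apart.

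ND1 forms much of the chamber in which ubiquinone is reduced, at the foot of the membrane arm. Female group levels were 18.45 ± 0.12, 18.58 ± 0.13 and 18.66 ± 0.19 (mean ± SD; 10, 10 and 9 animals), and male group levels 18.61 ± 0.26, 18.46 ± 0.16 and 18.54 ± 0.04 (6, 6 and 5 animals). The spread was widest in naive males, where replicate 2 at 18.19 was the lowest of all 46 libraries and replicate 1 the highest. The 5 males at 3 weeks lay close together at 18.51, 18.52, 18.50, 18.54 and 18.61.

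ND2, ND4 and ND5 are the antiporter-like subunits of the membrane arm, through which protons are thought to pass. ND2 averaged 18.37 ± 0.13, 18.45 ± 0.14 and 18.57 ± 0.21 in the 3 female groups (SD; 10, 10 and 9 animals) and 18.41 ± 0.28, 18.34 ± 0.14 and 18.35 ± 0.10 in the 3 male groups (6, 6 and 5 animals). Its lowest, median and highest levels were 18.22, 18.33 and 18.64 in naive females and 17.92, 18.46 and 18.76 in naive males. The naive male range enclosed that of the naive females below and above.

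ND4 varied least of the 7 between animals of a group, with a within-group SD of 0.12. Its group means were 18.64, 18.70 and 18.80 in females and 18.74, 18.65 and 18.70 in males, each in the order naive, 24 h and 3 weeks. They spanned 0.16 log2 units, the narrowest span of the 7 genes.

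ND5 is the subunit at the far tip of the arm. Its female means were 16.44 ± 0.17, 16.35 ± 0.22 and 16.61 ± 0.20 (SD; 10, 10 and 9 animals). The lowest, median and highest female values were 15.88, 16.39 and 16.64 at 24 h and 16.29, 16.59 and 16.94 at 3 weeks, so the ranges overlapped and the 24 h range reached lower. Male means were 16.58 ± 0.21, 16.37 ± 0.22 and 16.42 ± 0.07 (SD; 6, 6 and 5 animals).

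ND3, ND4L and ND6 are the small subunits where the membrane arm meets the peripheral arm, and ND3 carries a loop that moves when the enzyme switches between its active and resting states. ND3 was the most variable of the 7 within groups, with an SD of 0.23. Its female means were 15.47 ± 0.16, 15.64 ± 0.21 and 15.66 ± 0.33 (SD; 10, 10 and 9 animals). The female 3-week values had a low of 15.26, a median of 15.61 and a high of 16.41, the last being replicate 1, the library of lowest depth. Male means were 15.68 ± 0.29, 15.40 ± 0.19 and 15.61 ± 0.07 (SD; 6, 6 and 5 animals). In males the lowest, median and highest values were 15.20, 15.69 and 16.11 in naive animals and 15.24, 15.34 and 15.72 at 24 h, and the 5 values at 3 weeks were 15.61, 15.61, 15.58, 15.54 and 15.73. Of the 6 males at 24 h, 1 reached into the 3-week range.

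ND4L is the smallest of the 7 subunits, and its female means were 14.63 ± 0.13, 14.57 ± 0.25 and 14.82 ± 0.23 (SD; 10, 10 and 9 animals). Its lowest, median and highest values were 14.11, 14.61 and 14.98 in females at 24 h against 14.44, 14.76 and 15.23 at 3 weeks. Male means were 14.80 ± 0.08, 14.53 ± 0.12 and 14.71 ± 0.21 (SD; 6, 6 and 5 animals). Naive males were tight at 14.73, 14.78 and 14.96 and lay wholly above the males at 24 h, at 14.40, 14.51 and 14.68. Over every pair of groups, this was the only one without overlap for any of the 7 genes. How many of all genes lay apart in this comparison was not counted, so the separation is not shown to be particular to ND4L. Males at 3 weeks spread from low to high again, at 14.92, 14.88, 14.40, 14.71 and 14.66.

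ND6 averaged 15.31 ± 0.16, 15.41 ± 0.17 and 15.56 ± 0.24 in females (SD; 10, 10 and 9 animals) and 15.61 ± 0.34, 15.31 ± 0.20 and 15.47 ± 0.10 in males (6, 6 and 5 animals). Naive males had a lowest, median and highest value of 15.12, 15.61 and 16.14, with the largest SD of any of the 7 genes in any group. The libraries are unstranded, so counts assigned to ND6 cannot be separated from RNA of the opposite strand, and the same holds for its neighbour ND5.

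**Figure D1:**
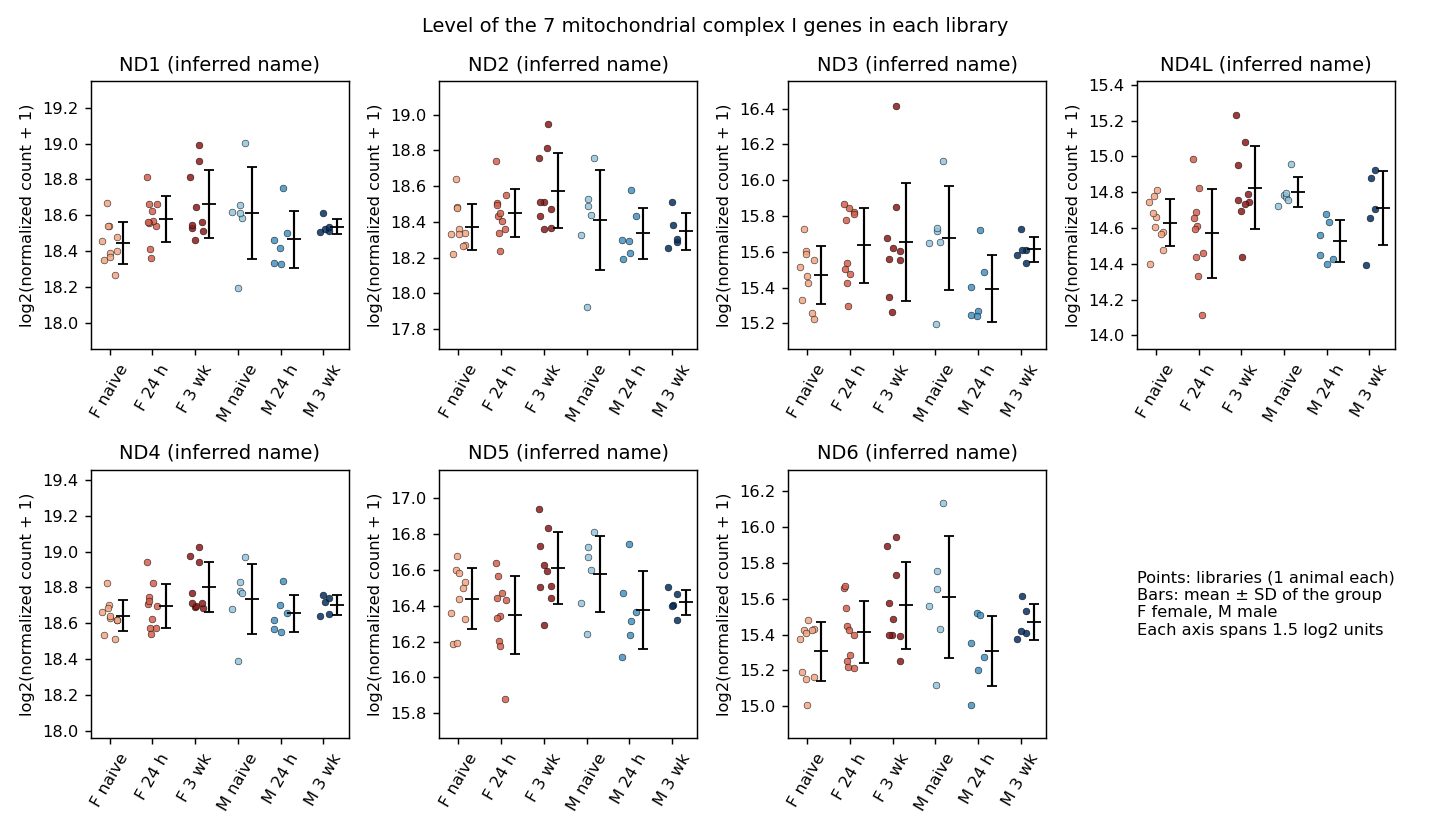
Level of each of the 7 genes, log2(normalized count + 1), by group; each point is 1 library (1 animal) and bars are the mean ± SD, with every axis spanning the same 1.5 log2 units. Groups overlap, except that naive males lie wholly above males at 24 h for ND4L, and naive males show the widest spread for ND1, ND2, ND4 and ND6. How many of all genes lie apart in the same way was not counted.

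In the order of the group means, neighbouring groups lay closer together than the within-group SD for each of the 7 genes. The highest mean was that of the females at 3 weeks for ND1, ND2, ND4L, ND4 and ND5, and that of the naive males for ND3 and ND6. The distance from the highest to the lowest group mean ran from 0.16 (ND4) to 0.30 (ND6) log2 units.

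Single libraries moved all 7 genes at once. In 6 libraries all 7 lay above their group's mean and in 7 all 7 lay below it. Those with the largest mean deviation were 3-week female replicate 1 (0.36 above its group, and 0.76 for ND3), naive male replicate 1 (0.33 above) and naive male replicate 2 (-0.37). The first 2 are also the libraries with the fewest low values near whole reads. The part that library quality had in these deviations was not tested.

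Within females, no member passed the test at 24 h. The differences from naive females ran from -0.09 (ND5) to 0.17 (ND3) on the log2 scale, with 5 of 7 above 0. With quantile normalization ND2 and ND4 also lay below 0 and ND1 was at 0.00. That method gives every library the same value at each rank, and by mean count ND4 ranked 2, ND1 4 and ND2 6. With so few genes above them, their levels under it move only when they change rank. For these genes it is therefore a limited check on sign and size. The test throughout is limma over all 14455 genes with Benjamini-Hochberg adjustment and a threshold of 0.05. Shares of all genes are given for the fit to the deposited values with every library. None is given beside counts under other settings or with libraries left out. In this comparison 0.104% of the genes tested passed, and 19.4% had an unadjusted p under 0.05, against 0 of the 7 members. Leaving out 1 library at a time gave 0 to 2 of 7. The interval for ND3, the largest difference, was -0.03 to 0.37.

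Females at 3 weeks had higher means than naive females for all 7 genes, by 0.16 (ND4) to 0.26 (ND6) log2 units with a median of 0.19 (6 of 7 with quantile normalization, ND4 being -0.01 and the median 0.09). No member passed (adjusted p = 0.893 for each by limma), and neither did any other gene (0%). By the unadjusted p, 5 of 7 members lay under 0.05, against 4.91% of all genes tested, and the median difference over all genes was 0.00. ND1 gave 0.22 (SE 0.07, 95% interval 0.07 to 0.36), a 1.16-fold difference with an unadjusted limma p of 0.00445. ND6 gave 0.26 (SE 0.09, 95% interval 0.07 to 0.45), or 1.2-fold. The members are measured in the same libraries and largely on shared transcripts, so 7 genes on 1 side are not 7 separate observations. The other 6 mitochondrial genes had a median of 0.20 and 6 of 6 at an unadjusted p under 0.05. Without 3-week female replicate 1 the median of the 7 was 0.16 and 4 of 7 had an unadjusted p under 0.05, and with quantile normalization 1 of 7 had.

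Against females at 24 h, females at 3 weeks had higher means for all 7 genes, by 0.02 (ND3) to 0.26 (ND5) with a median of 0.12 (0.03 with quantile normalization; 6 of 7 above 0 with libraries weighted by their fit). No member and no other gene passed (0%). ND5 gave 0.26 (SE 0.09, 95% interval 0.09 to 0.44) and ND4L gave 0.25 (SE 0.08, 95% interval 0.08 to 0.42), each with an adjusted limma p of 0.453. These 2 of 7 members had an unadjusted p under 0.05, against 8.63% of all genes. ND4L and ND5 were also the 2 members whose 24 h mean lay below that of naive females. The 3 comparisons within females share their groups and are not independent of each other.

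**Figure D2:**
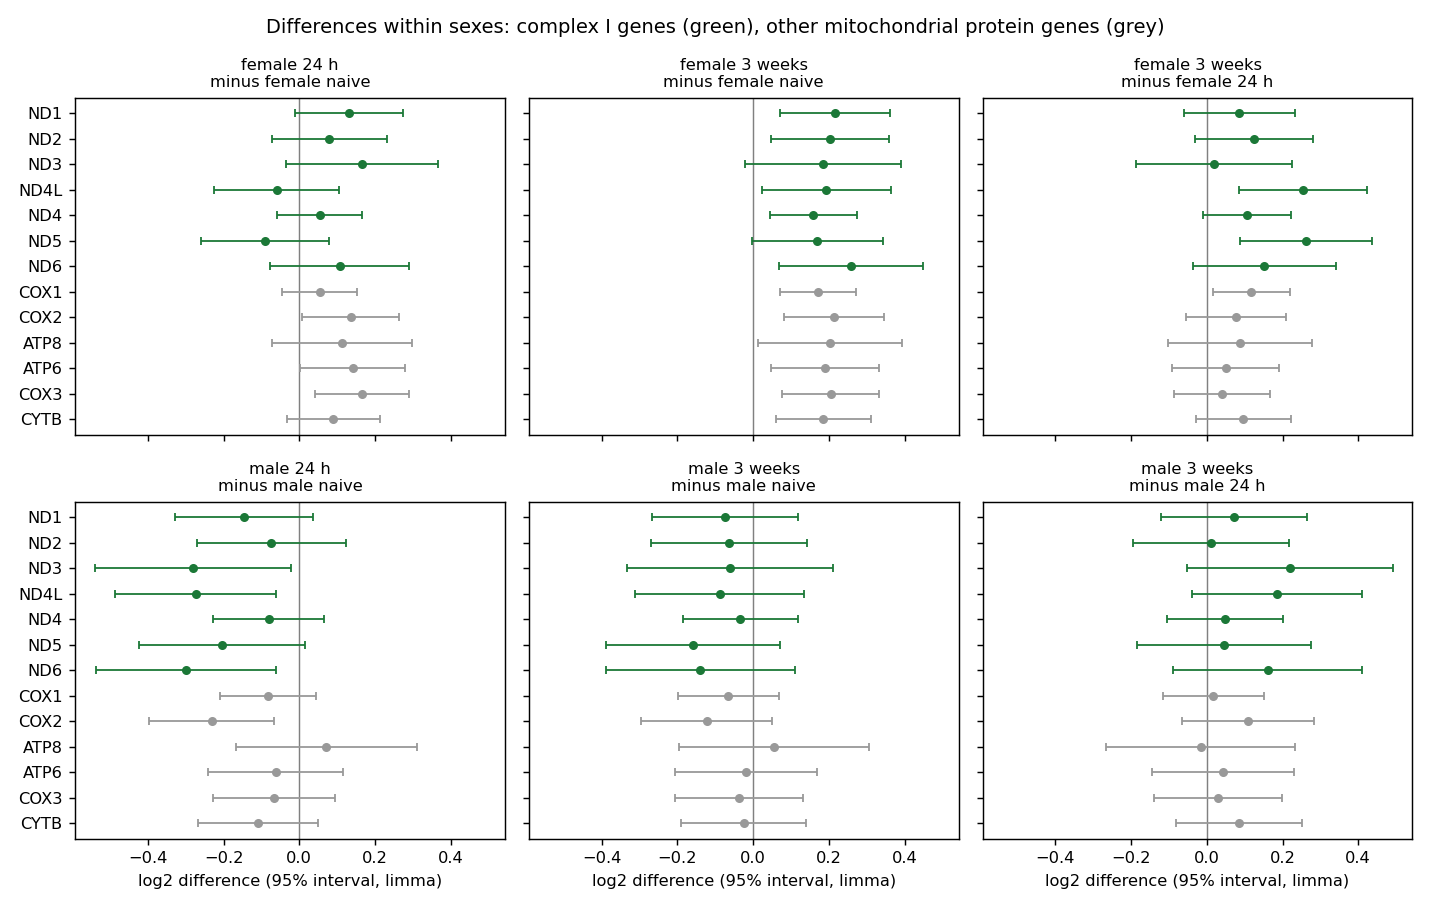
Difference in mean log2 level between conditions within each sex, with 95% intervals from limma, for the 7 complex I genes (green) and the 6 other mitochondrial protein genes (grey); the zero line marks no difference. All 7 complex I genes lie right of 0 in females at 3 weeks against naive (0.16 to 0.26) and left of 0 in males at 24 h against naive (-0.30 to -0.07), and none passed after adjustment; with quantile normalization ND4 crosses 0 in the former and ND2 and ND4 in the latter.

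In males, the means at 24 h lay below those of naive males for all 7 genes, from -0.30 (ND6) to -0.07 (ND2) with a median of -0.20 (5 of 7 with quantile normalization, ND2 being 0.11, ND4 0.03 and the median -0.08). No member passed, with a lowest adjusted limma p of 0.249, that of ND4L, while 0.242% of all genes did. ND6 gave -0.30 (SE 0.12, 95% interval -0.54 to -0.06), ND3 -0.28 (SE 0.13, 95% interval -0.54 to -0.02) and ND4L -0.27 (SE 0.11, 95% interval -0.49 to -0.06). These 3 of 7 had an unadjusted p under 0.05, against 11.9% of all genes. Of the other 6 mitochondrial genes 1 lay under 0.05 and their median was -0.07. The count rests on single naive males: it was 1 of 7 without replicate 1 (median -0.16) and 6 of 7 without replicate 2 (median -0.27). The comparison also crosses patterns A and B.

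Males at 3 weeks and naive males, both of pattern B, differed by -0.16 (ND5) to -0.03 (ND4), with 3 of 7 above 0 under quantile normalization, and no member passed or had an unadjusted p under 0.05. Among all genes 0% passed and 2.38% had an unadjusted p under 0.05. Without naive male replicate 1 the median went from -0.07 to 0.00, with 4 of 7 above 0. From 24 h to 3 weeks in males the differences were 0.01 (ND2) to 0.22 (ND3), with 5 of 7 above 0 under quantile normalization, again with 0 of 7 members passing or at an unadjusted p under 0.05, where 0.0692% and 9.34% of all genes did. Leaving out 1 library at a time gave 0 to 1 of 7 in the latter.

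Between the sexes, naive males had higher means than naive females for all 7 genes, by 0.04 (ND2) to 0.30 (ND6) with a median of 0.17, or for 5 of 7 with a median of 0.04 with quantile normalization. No member passed, while 2.28% of all genes did, and 2 of 7 members had an unadjusted p under 0.05, against 19.2% of all genes. With quantile normalization 4 of 7 members had, and the share of all genes under that setting is not given here. ND6 gave 0.30 (SE 0.11, 95% interval 0.09 to 0.52), a 1.23-fold difference with an adjusted limma p of 0.105. ND6 passed without naive male replicate 2 (0.40, adjusted limma p 0.0439) and, with every animal kept, when the replicate number was a block (0.36, adjusted limma p 0.0448). No label ties animals of the same replicate number, so that block adjusts for no known factor. The count of members at an unadjusted p under 0.05 was 5 of 7 without naive male replicate 2 and 0 of 7 without naive male replicate 1. Leaving out any other library gave values between these. Of the other 6 mitochondrial genes COX2 passed in the full set, at 0.29 with an adjusted limma p of 0.0224.

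At 24 h the sexes, both of pattern A here, differed by -0.24 (ND3) to 0.03 (ND5). No member passed, and ND3 alone, 1 of 7, had an unadjusted p under 0.05 (adjusted limma p = 0.41). In all genes 0.0138% passed and 11.5% lay under an unadjusted 0.05, and leaving out 1 library at a time gave 0 to 2 of 7. At 3 weeks all 7 means were lower in males, from -0.23 (ND2) to -0.04 (ND3), with 3 of 7 above 0 under quantile normalization and 1 of 7 with libraries rescaled to 1 total or weighted by their fit, and none passed, against 3.19% of all genes. ND2, with an adjusted limma p of 0.149, was the 1 of 7 members at an unadjusted p under 0.05, against 21.3% of all genes. Leaving out 1 library at a time gave 0 to 2 of 7, with 0 of 7 and a median of -0.08 without 3-week female replicate 1.

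Averaged over the 3 conditions, males and females differed by -0.10 (ND2) to 0.04 (ND6), with intervals that all include 0. No member passed or lay under an unadjusted 0.05, whereas 19.6% of all genes passed and 32.9% lay under an unadjusted 0.05. With quantile normalization 2 of 7 members lay under an unadjusted 0.05 and ND2 passed, at -0.09 with an adjusted limma p of 0.0177. The shares of all genes under that setting are not given here. The number of members above 0 was 2 of 7 as deposited, 4 of 7 with libraries rescaled to 1 total, 5 of 7 with quantile normalization and 6 of 7 with libraries rescaled without the 13 mitochondrial genes. Leaving out 1 library at a time gave 0 to 1 of 7 at an unadjusted p under 0.05. Whether the change with pairing differed between the sexes was tested as an interaction.

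The change from naive to 24 h in males minus that in females was below 0 for all 7 genes, from -0.45 (ND3) to -0.11 (ND5), with a median of -0.21 (-0.04, with 2 of 7 above 0, with quantile normalization). No member passed (0.0484% of all genes did). ND1, ND3 and ND6, 3 of 7, had an unadjusted p under 0.05, against 9.03% of all genes, and ND3 gave -0.45 (SE 0.16, 95% interval -0.78 to -0.12) with an adjusted limma p of 0.4. Leaving out 1 library at a time gave 2 to 5 of 7, with 5 of 7 without naive male replicate 2. The change to 3 weeks differed between the sexes by -0.40 (ND6) to -0.19 (ND4), with a median of -0.28 (-0.09, with 2 of 7 above 0, with quantile normalization). No member and no other gene passed (0%), with an adjusted limma p of 0.999 for each member, and 6 of 7 members had an unadjusted p under 0.05, against 3.14% of all genes. That count was 0 of 7 without naive male replicate 1 (median -0.21), 3 of 7 without 3-week female replicate 1 (median -0.25), and 0 to 6 of 7 over all libraries left out in turn. It was 0 of 7 with quantile normalization and 3 of 7 with libraries rescaled to 1 total. The 24 h interaction crosses the patterns within males and the 3-week interaction does not, and both use the same naive animals.

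Ratios between members remove what moves all 7 genes of a library together. The 6 ratios of neighbouring members in the identifier order were compared in 9 pairs of groups, 54 two-sided exact permutation tests over libraries with Benjamini-Hochberg adjustment over the 54 (100000 resamples where both groups hold 10). Of the 54, 4 passed and 11 had an unadjusted p under 0.05. ND3/ND2 accounted for 3 of the 4 and ND2/ND1 for the fourth. ND2 and ND3 are neighbours only among the members, since COX1, COX2, ATP8, ATP6 and COX3 lie between them in the identifier order. A log2 ratio here is of normalized counts, so its size has no meaning per length and only its differences are read.

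ND3/ND2 was -2.73 ± 0.06 (SD, n = 6) in naive males, -2.94 ± 0.07 (n = 6) in males at 24 h and -2.73 ± 0.05 (n = 5) in males at 3 weeks. The lowest, median and highest values were -2.81, -2.74 and -2.65 in naive males and -3.05, -2.95 and -2.86 at 24 h, and the 5 values at 3 weeks were -2.68, -2.77, -2.67, -2.76 and -2.78. All 6 males at 24 h lay below every naive and every 3-week male. The ratio fell by 0.21 (SE 0.04) from naive to 24 h, with an exact permutation p of 0.00216, the smallest that 6 against 6 can give, and an adjusted p of 0.039. From 24 h to 3 weeks it rose by 0.21 (SE 0.04), with the same exact permutation p, again the smallest possible, and the same adjusted p. Leaving out 1 library at a time, the sizes stayed at -0.22 to -0.19 and at 0.19 to 0.23. The first call was lost in 10 of the 46 cases (adjusted p up to 0.054), including without each of the males at 24 h, and the second in 11 (up to 0.0857), including without each male at 24 h and at 3 weeks. In each of these cases the remaining males at 24 h still lay below every remaining naive and 3-week male. A lost call here thus does not mean that the groups came to overlap. The smallest exact permutation p is 0.00216 for 6 against 6 and also for 6 against 5. The first test kept that p in each of its lost cases, and its call was lost in the adjustment over the 54 tests. For the second test fewer animals also allowed fewer permutations. With quantile normalization the sizes were -0.43 and 0.32, and neither passed (adjusted p = 0.0584 and 0.117, exact permutation).

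In naive females ND3/ND2 was -2.90 ± 0.08 (SD, n = 10), with a lowest, median and highest value of -3.05, -2.89 and -2.78. Naive males were higher by 0.17 (SE 0.04; exact permutation p = 0.000375, adjusted p = 0.0202), with ranges that overlapped at their edges, and this call held with each library left out in turn (adjusted p up to 0.039). With quantile normalization the difference was 0.42, with an adjusted p of 0.00674 by the same exact permutation test. Females at 24 h gave -2.81 ± 0.16 (n = 10) and females at 3 weeks -2.92 ± 0.18 (n = 9), a wider spread than in naive females or in any male group. No ND3/ND2 difference between female groups passed. At 24 h, where both sexes are of pattern A, males lay 0.13 below females (difference -0.13, exact permutation p = 0.0857, adjusted p = 0.272).

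ND2/ND1, the ratio with the least spread of all 21 pairs (within-group SD 0.06), was -0.20 ± 0.08 (SD, n = 6) in naive males and -0.07 ± 0.05 (n = 10) in naive females. Values ran from -0.29 to -0.12 in the males and from -0.14 to -0.00121 in the females, so the groups overlapped. The difference was -0.13 (SE 0.04; exact permutation p = 0.003, adjusted p = 0.0405). Without naive male replicate 1 and 3-week female replicate 1 together it was -0.12 with an adjusted p of 0.0899, by the same exact permutation test. The call was also lost in 20 of the 46 cases with 1 library left out (adjusted p up to 0.101) and with quantile normalization (0.117). At 3 weeks the ratio was -0.19 ± 0.07 (n = 5) in males and -0.09 ± 0.05 (n = 9) in females, a difference of -0.10 that did not pass (exact permutation, adjusted p = 0.0809). At 24 h it was -0.13 ± 0.04 (n = 6) and -0.13 ± 0.05 (n = 10).

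All 4 ratio differences that passed lie between a group of pattern A and a group of pattern B. In comparisons within 1 pattern 0 ratios passed: the 3 within females, naive against 3-week males and the sexes at 24 h. Naive and 3-week males, both of pattern B, had an ND3/ND2 difference of 0.00 (exact permutation p = 0.948). For the ratios that passed, group and pattern cannot be told apart.

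**Figure D3:**
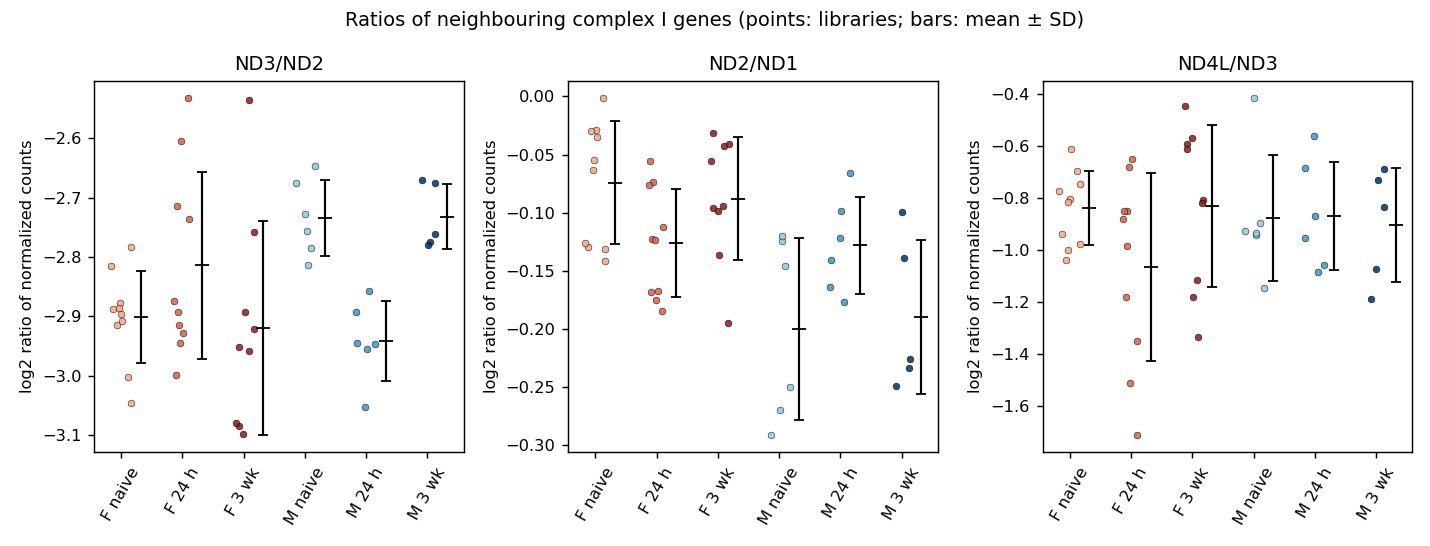
Log2 ratio of normalized counts for ND3/ND2, ND2/ND1 and ND4L/ND3 by group; points are libraries and bars the mean ± SD. Males at 24 h lie at -3.05 to -2.86 for ND3/ND2, below all naive and 3-week males, and ND4L/ND3 spreads widest in females at 24 h.

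The other 4 ratios gave no call on the deposited scale. With quantile normalization 2 of them passed in naive males against naive females: ND6/ND5 at 0.32 (exact permutation, adjusted p = 0.0101), against 0.17 as deposited (adjusted p = 0.23), and ND4/ND4L at -0.25 (adjusted p = 0.0292), against -0.08 (adjusted p = 0.505). ND6/ND5 averaged -1.13 ± 0.14 (SD) in the 10 naive females against -0.94 ± 0.18 in the 10 paired for 24 h, a difference of 0.20 (permutation p = 0.0134, adjusted p = 0.12). ND5/ND4 was 0.16 higher in females at 3 weeks than at 24 h (exact permutation p = 0.0245, adjusted p = 0.165). ND4/ND4L, whose genes share a messenger, averaged 3.94 ± 0.16 (SD) in the 6 naive males against 4.13 ± 0.09 in the 6 paired for 24 h, with an exact permutation p of 0.0195 and an adjusted p of 0.15. Its within-group SD was 0.15, above that of ND4/ND1 (0.07) or ND4/ND2 (0.08), which are on separate messengers.

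ND4L/ND3 had no difference between groups that passed and a wide spread between animals. Female means were -0.84 ± 0.14, -1.07 ± 0.36 and -0.83 ± 0.31 (SD; 10, 10 and 9 animals), and male means -0.88 ± 0.24, -0.87 ± 0.21 and -0.90 ± 0.22 (SD; 6, 6 and 5 animals). Over the 46 libraries it ran from -1.71 (24 h female replicate 1) to -0.41 (naive male replicate 2).

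The members' deviations from their group means were compared over the 46 libraries. In the 21 pairs Pearson's r ran from 0.18 (ND3 and ND5) to 0.95 (ND1 and ND2), with a median of 0.66. By a permutation test with Benjamini-Hochberg adjustment over the 21, 19 pairs passed by r and 17 by Spearman's rho. The points share the library, its depth and its normalization, and the genes share transcripts, so a positive r is a description of these libraries.

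ND1, ND2, ND3 and ND4 varied closely together. ND1 and ND2 had r = 0.95 and rho = 0.91 (adjusted permutation p = 2.1e-05, where 1e-05 is the smallest raw p the permutations give), and r = 0.93 without the 2 libraries farthest from the median of ND1. Within pattern A it was 0.95 and within pattern B 0.94. ND1 and ND4 had r = 0.90, ND1 and ND3 0.90, and ND2 and ND4 0.92. In the identifier order ND4 is parted from ND1 and ND2 by COX1, COX2, ATP8, ATP6 and COX3 and by the members ND3 and ND4L.

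ND4L and ND5 were tied less to the other members. ND3, next to ND4L among the members, had r = 0.20 with it (rho = 0.17, permutation p = 0.225, adjusted p = 0.237). ND3 and ND5 had r = 0.18 (rho = 0.07, permutation p = 0.30), with 0.03 in pattern A and 0.82 in pattern B. ND4L and ND5 had r = 0.66 (rho = 0.58, adjusted permutation p = 2.1e-05), 0.57 without the 2 farthest libraries, but 0.78 in pattern A against 0.01 in pattern B. The difference between patterns was not tested, and pattern B holds 11 libraries. ND4L and ND4, on 1 messenger, had r = 0.58 (rho = 0.58), 0.69 in pattern A and 0.26 in pattern B.

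ND6, on the other strand, had r from 0.51 (ND4L) to 0.73 (ND4) with the other members. A principal component analysis of the 7 sets of deviations gave a first component with 68.9% of the variance, with all 7 genes on 1 side. The second, with 18.8%, set ND5 and ND4L (loadings 0.56 and 0.55) against ND3 and ND1 (-0.47 and -0.30).

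**Figure D4:**
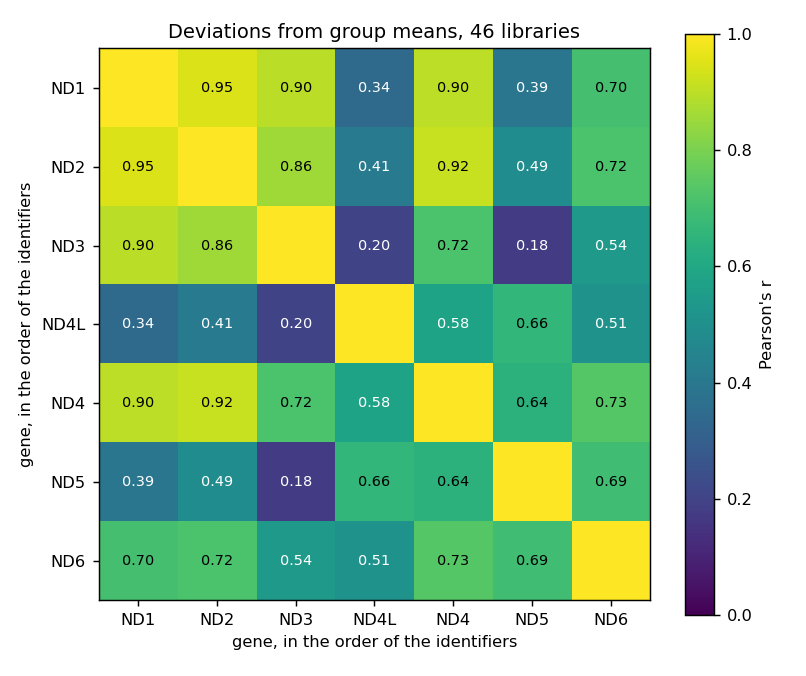
Pearson's r between the 7 genes' deviations from group means over 46 libraries, in identifier order. ND1, ND2, ND3 and ND4 correlate at 0.72 to 0.95, and ND4L and ND5 correlate with ND3 at 0.20 and 0.18.

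**Figure D5:**
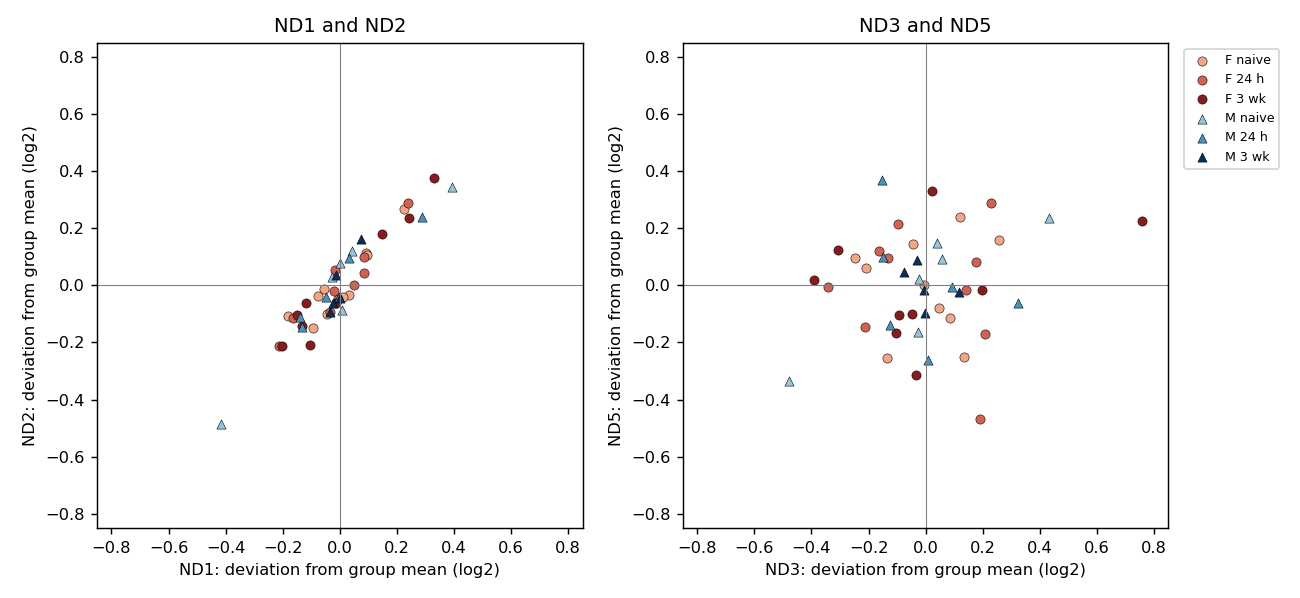
Deviation from the group mean (log2) of ND2 against ND1 and of ND5 against ND3, 1 point per library, circles for females and triangles for males. ND1 and ND2 follow a line (r = 0.95), and ND3 and ND5 do not (r = 0.18).

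The genes most like each member were those with the highest r of deviations among the 14454 other genes tested, over the same 46 libraries. For ND1 they were ND2 (0.95), CYTB (0.93) and ND4 (0.90), and for ND2 they were ND1, ND4 (0.92) and CYTB (0.91). ND3 was nearest to ND1 (0.90), ND2 (0.86) and ATP6 (0.84), and ND4 to ND2, ND1 and CYTB (0.89). ND5 was nearest to ND6 (0.69), COX1 (0.67) and ND4L (0.66). ND6 was nearest to CYTB (0.82), COX1 (0.77) and ENSMOCG00000021387 (0.745), the last not among the 13 mitochondrial protein genes and without a name in the files. ND4L alone among the 7 had none of the 13 among its 3 nearest: these were ENSMOCG00000013927 (0.79), ENSMOCG00000004988 (0.77) and ENSMOCG00000018818 (0.77), which have no name in the files. ND5, the nearest to ND4L of the 13, ranked 61.

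Estimated depth was set against each member's deviations in 7 relations over 46 libraries, and 0 passed. The nearest was ND3, with r = -0.46 and rho = -0.35 (permutation p = 0.00765 for r, adjusted p = 0.0535). Leaving out the 2 libraries of most extreme depth gave r = -0.31. Without naive male replicate 1 and 3-week female replicate 1 it was -0.26, within pattern A -0.53 and within pattern B -0.15. The other 6 members had r from -0.30 (ND1) to 0.14 (ND5).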

How the data were processed

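RNA from nucleus accumbens punches of 46 voles was made into poly(A)-selected, unstranded libraries primed with random hexamers, per the labels' protocols. The tools were Salmon 0.12, fastp 0.14.1, FastQC 0.11.7, bcl2fastq 2.20.0.422 and DESeq2 (no version), per the submitters' processing notes; the genome build was not given in the sources used here. Values in the 1 deposited table (17479 genes) run from 0 to 19.9, and from those values the authors' unit is taken as log2(normalized count + 1). Whole reads were not recovered in every library, so no count model was used.

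The log was undone and a pseudocount of 1 used. The 14455 genes averaging 10 or more normalized counts were tested over all 46 libraries in 1 model of 6 groups, with limma 3.58.1 in R 4.3.3 (trend and robust options, Benjamini-Hochberg adjustment, threshold 0.05); fold changes are on the log2(value + 1) scale. Ratios and correlations used permutation tests (numpy 2.4.6, pandas 2.3.3, Python 3.11.15). The limma, ratio and correlation tests were each tried on simulated data, but the estimates of depth and pattern and the outlier check were not. All 7 genes are named, and likeness names the 3 genes with the highest r. Members, lists and tests were chosen with earlier results of these data known. No library was counted as a repeat: log2 differences between any 2 had an SD of 0.161 or more. The alternatives were other pseudocounts, filters, normalizations, weights, a replicate block and leaving out libraries. The planned lists of tissue markers, nuclear complex I genes and mitochondrial regulators could not be run without gene names, and sequences were not used here.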

Additional observations from a re-analysis of the deposited data

Results flagged for a closer look

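In 78 checks of a group of 5 to 10 libraries, made on the levels of the 7 genes and on the neighbour ratios, 4 had a highest or lowest library set apart from the others by Dixon's criterion; chance alone gives about 1 in 20 such groups. ND4L was highest in naive male replicate 1, at 14.96, with the other 5 at 14.73 to 14.80. That library also had the other 6 members above their group mean. The log2 ratio ND4L/ND3 was highest in naive male replicate 2, at -0.41, with the others at -1.15 to -0.90. In the same animal ND4/ND4L was lowest, at 3.60, with the others at 3.95 to 4.03. ND5/ND4 was lowest in 24 h female replicate 1, at -2.70, with the other 9 at -2.45 to -2.18, and ND5 and ND4L had their lowest levels of all 46 libraries there (15.88 and 14.11). Both ratios of naive male replicate 2 contain ND4L, so they are not separate observations.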

How the results depend on the processing

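Each of the 84 member differences (7 genes, 12 comparisons) was recomputed under 58 settings, 4872 values in all, of which 85 had the other sign (31 of the 84 differences at least once) and 3 passed the test. Those that passed were ND6 in naive males against naive females with the replicate block (0.36, adjusted limma p = 0.0448) and without naive male replicate 2 (0.40, 0.0439), and ND2 in males against females over the 3 conditions with quantile normalization (-0.09, 0.0177). The count of members called was thus 1 instead of 0 in each, and leaving out 1 library at a time gave 0 to 1 for the naive sexes. Of the 58 settings, 46 each left out 1 library. Such a setting cannot change a difference between groups that do not hold that library. Recomputed size factors returned the same median, lowest and highest difference in every comparison. Many of the 4872 values could therefore not turn, and 85 is no measure of how stable the signs are. Quantile normalization gives every library the same value at each rank. In females it turned ND2 (-0.0065) and ND4 (-0.0418) at 24 h and ND4 (-0.0119) at 3 weeks, each against naive. In males it turned ND2 (0.113) and ND4 (0.0267) at 24 h against naive. By mean count ND4 ranked 2, ND1 4, ND2 6 and ND5 9, so under this method their levels move only when they change rank. For these genes a turned sign or a smaller difference can come from the method itself and is a limited check. With quantile normalization the median of the 7 members shrank from -0.21 to -0.04 for the 24 h interaction. For the 3-week interaction it shrank from -0.28 to -0.09. By correlation 10 of 21 member pairs passed instead of 19, also with quantile normalization. Neighbour ratios called went from 1 to 0 with quantile normalization and with the replicate block, both for males at 24 h against naive and for males at 3 weeks against 24 h; leaving out 1 library gave 0 to 1 for each. For the naive sexes they went from 2 to 3 with quantile normalization (ND2/ND1 no longer passing, ND4/ND4L and ND6/ND5 now passing), to 0 with the block and to 1 without the 2 libraries least often near whole reads (an alternative chosen after seeing the data), with 1 to 2 when 1 library was left out. For the sexes at 3 weeks leaving out 1 library gave 0 to 1. The cause was not tested, except that the paired ratio test, with 5 or 6 pairs, has too few permutations to pass after adjustment. The replicate numbers were not treated as pairs. Over 95 pairs of libraries with the same number, deviations had a mean r of -0.00366 (range -0.23 to 0.30), and pairs with other numbers averaged 0.000629. A planned fit with the pattern as a term could not be run, since pattern B is exactly the naive and 3-week males. The groups hold 5 to 10 animals, which limits the precision of every difference given.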
